A study of Homo sapiens with 12 samples.

Results

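RRAD, GEM, REM1 and REM2 encode the RGK small GTPases, a branch of the Ras superfamily, and their transcripts were followed here in H358 lung carcinoma cells. The members were taken as every gene probe whose RefSeq accession maps to one of these 4 symbols. The rule found 5 of the 41000 gene probes of the array, of which 2 report RRAD and 1 each reports GEM, REM1 and REM2. The RRAD probes A_23_P88849 and A_24_P262127 both carry the accession NM_004165. The probe of GEM is A_23_P257043 (NM_005261), that of REM1 is A_23_P28948 (NM_014012) and that of REM2 is A_23_P151624 (NM_173527). Each probe has 1 spot per array.

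RGK proteins bind guanine nucleotides like other Ras relatives but lack the lipid anchor that holds Ras at the membrane. Their best known action is on voltage-gated calcium channels, where they bind the beta subunit and reduce the current. Calmodulin and 14-3-3 proteins bind RGK proteins, and RRAD and GEM also bind the kinases ROCK1 and ROCK2, which act on the actin cytoskeleton. RRAD was first known from skeletal muscle and is also expressed in heart and lung, GEM was first known as a gene induced in activated T cells, and REM2 is best known from neurons.

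The series holds 12 one-colour 44k Agilent arrays, 6 labelled control with treatment none and 6 labelled SRSF2 over-expression. All samples are the established line H358, and per the study's methods a single inducible clone, H358/Tet-On/SRSF2, which carries the splicing factor SRSF2 under a Tet-responsive promoter. Over-expression was induced with doxycycline at 1 µg/mL for 24 h, and the control arrays carry the same time. Whether control cells received any vehicle is not given in the sources used here. There are 3 slides, each with 2 arrays per condition. The supplement describes 3 labelling reactions per condition with 2 of the 44k arrays each. Every array thus shares labelled RNA with another, and the spread between arrays may be technical. Which arrays share a reaction is not given. The main fits count all 6 arrays of a condition as separate, which can make their p-values too small.

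The SRSF2 probe went against its label. On the log2 scale, with each array set relative to its 75th percentile, SRSF2 A_23_P77776 was at 3.92 ± 0.10 on control arrays and at 2.47 ± 0.10 on those labelled SRSF2 over-expression (mean ± SD, n = 6 arrays each). The signal was lower by a log2 difference of -1.46 (SE 0.06, limma, Benjamini-Hochberg adjusted p = 1.68e-09). Per the study's supplement, SRSF2 over-expression in this clone was checked by western blot and quantitative RT-PCR, measures not used here. Whether the probe's target lies within the transgene is not given in the sources used here, so directions below refer to the labels. Of the gene spots, 54.2% to 67.8% were well above background on control arrays and 55.2% to 68.0% on those labelled SRSF2 over-expression. All 7 epithelial marker genes were well above background on all 12 arrays. So were the lung markers NKX2-1, SFTPC and SCGB1A1, with SFTPB on 2 arrays and SFTPD on 3, while PTPRC of leukocytes, CDH5 of endothelium, COL1A2 and DCN of fibroblasts and MYL2 and DES of muscle were above it on 0 arrays. The muscle genes MYH7 and ACTA1 were above it on 1 and 5 arrays. CD68 and PECAM1 were above it on 12 arrays, VWF on 11 and CD3E on 10.

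RRAD and GEM were expressed in H358 cells, and their signals differed between the conditions in opposite directions. Both RRAD probes were lower on the arrays labelled SRSF2 over-expression, by about the same log2 difference, and the GEM probe was higher. REM1 and REM2 were not well above background on any of the 12 arrays. The family was selected on earlier results of this same contrast, in which RRAD had been noted, so the differences of the members are given as a description, without a test.

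RRAD, the GTPase also called Rad, gave the brightest RGK signals. On control arrays 1 to 6, RRAD A_23_P88849 had processed signals of 5075, 4270, 7503, 7586, 7361 and 7306. On arrays 1 to 6 labelled SRSF2 over-expression, its signals were 2031, 2135, 2683, 2779, 2566 and 2436. Every control array lay above every array labelled SRSF2 over-expression, and within each condition the lowest signals were those of arrays 1 and 2, on slide 1. Relative to the 75th percentile, the probe was at 2.68 ± 0.19 on control arrays and 1.22 ± 0.19 on the others (log2, mean ± SD, n = 6 arrays each). The log2 difference was -1.46 (SE 0.10), which is 2.75-fold lower, and a gap of 0.99 separated the lowest control array from the highest array labelled SRSF2 over-expression.

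The other RRAD probe, RRAD A_24_P262127, was dimmer and gave the same contrast. Its signals on control arrays 1 to 6 were 1981, 1664, 2586, 2593, 2387 and 2295. On arrays 1 to 6 labelled SRSF2 over-expression they were 812, 863, 892, 992, 833 and 706. The conditions again did not overlap. The levels were 1.17 ± 0.08 on control arrays and -0.30 ± 0.17 on the others (log2 relative to the 75th percentile, mean ± SD, n = 6 arrays each). The log2 difference was -1.46 (SE 0.08), or 2.76-fold lower, with a gap of 1.16 between the conditions. The 2 RRAD probes stood apart by 1.52 ± 0.13 on control arrays and 1.52 ± 0.19 on the others (log2 difference between the probes, mean ± SD, n = 6 arrays each). Levels are not compared between different probes as amounts of RNA, but the offset between these probes of 1 gene was alike in both conditions.

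GEM, the GTPase also known as Kir, had the dimmest of the 3 measured probes, and its signal was well above background on all 12 arrays. On control arrays 1 to 6, GEM A_23_P257043 had signals of 221, 179, 206, 215, 190 and 204. On arrays 1 to 6 labelled SRSF2 over-expression, the signals were 583, 583, 391, 394, 424 and 479. Every array labelled SRSF2 over-expression was above every control array, and arrays 1 and 2, on slide 1, were the highest of their condition. The levels were -2.30 ± 0.16 on control arrays and -1.15 ± 0.27 on the others (log2 relative to the 75th percentile, mean ± SD, n = 6 arrays each). The log2 difference was 1.15 (SE 0.12), 2.21-fold higher, and the gap between the conditions was 0.64.

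**Figure D1:**
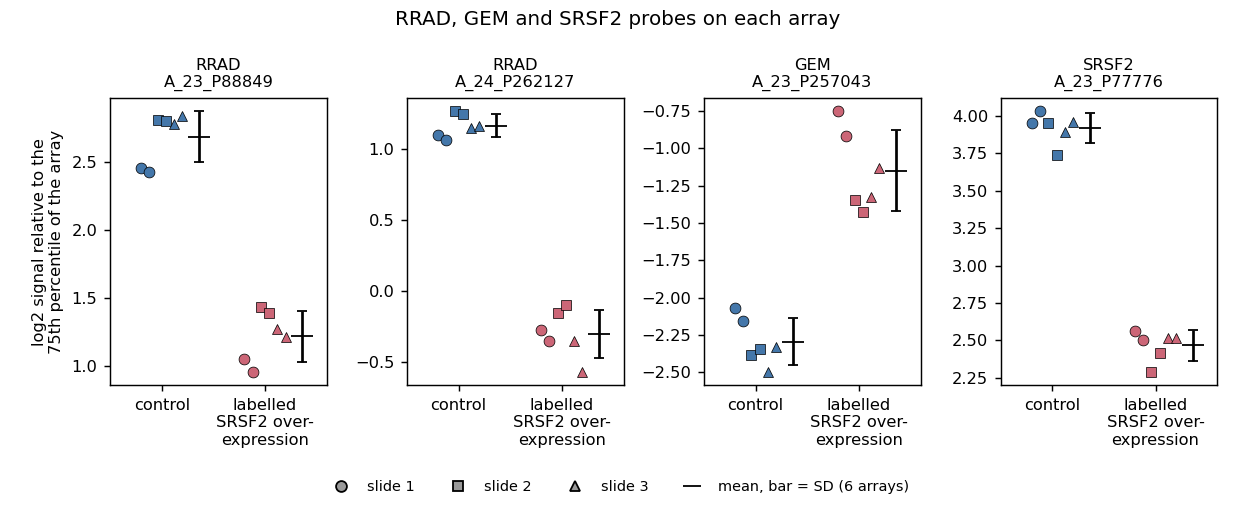
Log2 signal after subtraction of each array's 75th percentile (vertical axis, a separate scale in each panel) of both RRAD probes, the GEM probe and the SRSF2 probe. Each point is 1 array, its shape is the slide, and the bar is the mean with SD over 6 arrays; RRAD and SRSF2 lie lower and GEM higher on the arrays labelled SRSF2 over-expression, with no overlap in any panel.

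All 3 RGK probes that passed the filter on dim probes differed by more than 2-fold. Of the 24331 probes tested, 57.7% had an adjusted p of at most 0.05. With such a p and at least 2-fold, 3.31% were in the lower direction, that of RRAD, and 3.68% in the higher direction, that of GEM. The conditions did not overlap for 40.2% of all tested probes. The members were chosen with this contrast known, so nothing is read from these counts. In size, 173 probes were further lower than RRAD A_23_P88849, 170 further lower than RRAD A_24_P262127, and 643 further higher than GEM A_23_P257043.

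REM1 and REM2, the remaining RGK genes, were near the level of background. REM1 A_23_P28948 had signals of 5.75 to 21.1 in the control condition and of 6.37 to 19.9 in the condition labelled SRSF2 over-expression, with medians of 11.3 and 10.6. The scanner software marked it as well above background on 0 of 12 arrays. Over the arrays it was brighter than 71.9% to 96.1% of the 153 negative control spots (median 81.4%). REM2 A_23_P151624 had signals of 5.01 to 53.4 in the control condition and of 6.47 to 21.3 in the other, with medians of 12.2 and 12.7. It too was well above background on 0 of 12 arrays and was brighter than 53.6% to 98.0% of the negative control spots (median 92.8%). The highest REM2 signal, 53.4 on control array 4, stood alone, since the next highest was 23.0 on control array 3. Since neither condition was well above background, no fold is given for either gene. By the software's weaker flag, positive and significant over background, each probe passed on 1 of 6 arrays in each condition, and REM2 exceeded the 95th percentile of the negative control spots on 3 of 12 arrays and REM1 on 1. The software's error estimate had a median of 99.6% of the signal for REM1 and for REM2 in each condition, against 10.0% to 12.6% on single arrays for RRAD and GEM. These probes do not show whether the genes are silent.

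**Figure D2:**
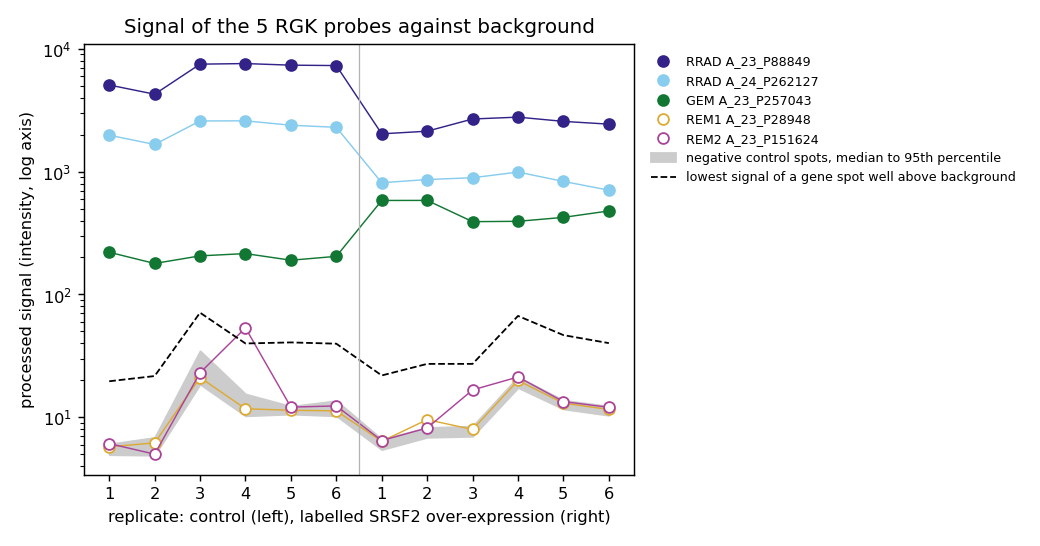
Processed signal (vertical axis, log scale) of the 5 RGK probes on each of the 12 arrays, control replicates 1 to 6 on the left and replicates 1 to 6 labelled SRSF2 over-expression on the right. Filled points were well above background and open points were not; RRAD and GEM lie above the dashed line, the lowest gene spot well above background, on every array, while REM1 and REM2 lie near the grey band of negative control spots except REM2 on control array 4 at 53.4.

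Each slide held the difference between the conditions for RRAD and GEM, while levels differed between slides. For RRAD A_23_P88849 the log2 difference was -1.44, -1.39 and -1.56 on slides 1, 2 and 3. For RRAD A_24_P262127 the slides gave -1.39, -1.38 and -1.62, and for GEM 1.28, 0.98 and 1.18. On slide 1 RRAD A_23_P88849 was lower in both conditions, at 2.44 on control arrays against 2.80 and 2.80 on slides 2 and 3, and at 1.00 against 1.41 and 1.24 where the label was SRSF2 over-expression (log2 means of 2 arrays). RRAD A_24_P262127 was also lowest on slide 1 among control arrays, at 1.08 against 1.26 and 1.16, but with the SRSF2 over-expression label its lowest slide was 3, at -0.46, with -0.31 and -0.13 on slides 1 and 2. GEM on slide 1 was higher in both conditions, at -2.11 against -2.36 and -2.41, and at -0.83 against -1.39 and -1.23. Arrays of the same condition and slide differed by 0.01 to 0.22 for these probes.

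Across the 6 arrays of a condition the RRAD and GEM signals ran opposite to each other. Pearson's r between RRAD A_23_P88849 and GEM was -0.86 over the control arrays and -0.90 over those labelled SRSF2 over-expression. Between RRAD A_24_P262127 and GEM it was -0.63 and -0.35, and between the RRAD probes 0.81 and 0.46. The arrays of a condition share slides and, in pairs, labelled RNA, so these values describe the arrays and were not tested.

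The size of the GEM difference depended on how background was removed. Normexp background correction, an alternative that models spot intensity over local background, moved the log2 difference of GEM to 0.54 (SE 0.24). With it, control array 6 reached -0.90, inside the range of the SRSF2 over-expression label (-1.07 to -0.51), and control array 5 reached -0.39, above that range. The difference on slide 3 was -0.15. The background level that normexp fitted was -1543 on control array 5 and -596 on control array 6, intensities far below 0. It was also far below 0 on control array 2 (-217) and on arrays 3 (-403) and 6 (-606) labelled SRSF2 over-expression. On control arrays 5 and 6, 68 and 57 spots had a local background above their own signal, and the lowest signal minus local background on control array 5 was -65463. With such spots set aside before the correction, a step chosen after seeing the data, the log2 difference of GEM was 0.94 (SE 0.11), under 2-fold. Its values then ran from -2.02 to -1.64 in the control condition and from -1.11 to -0.51 in the other, with no overlap, and the slides gave 1.13, 0.74 and 0.94. Without any background subtraction the difference was 0.98 (SE 0.11), also under 2-fold. RRAD differed by more than 2-fold in each of these settings, with -1.49 (SE 0.08) for RRAD A_23_P88849 and -1.37 (SE 0.08) for RRAD A_24_P262127 with the spots set aside.

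**Figure D3:**
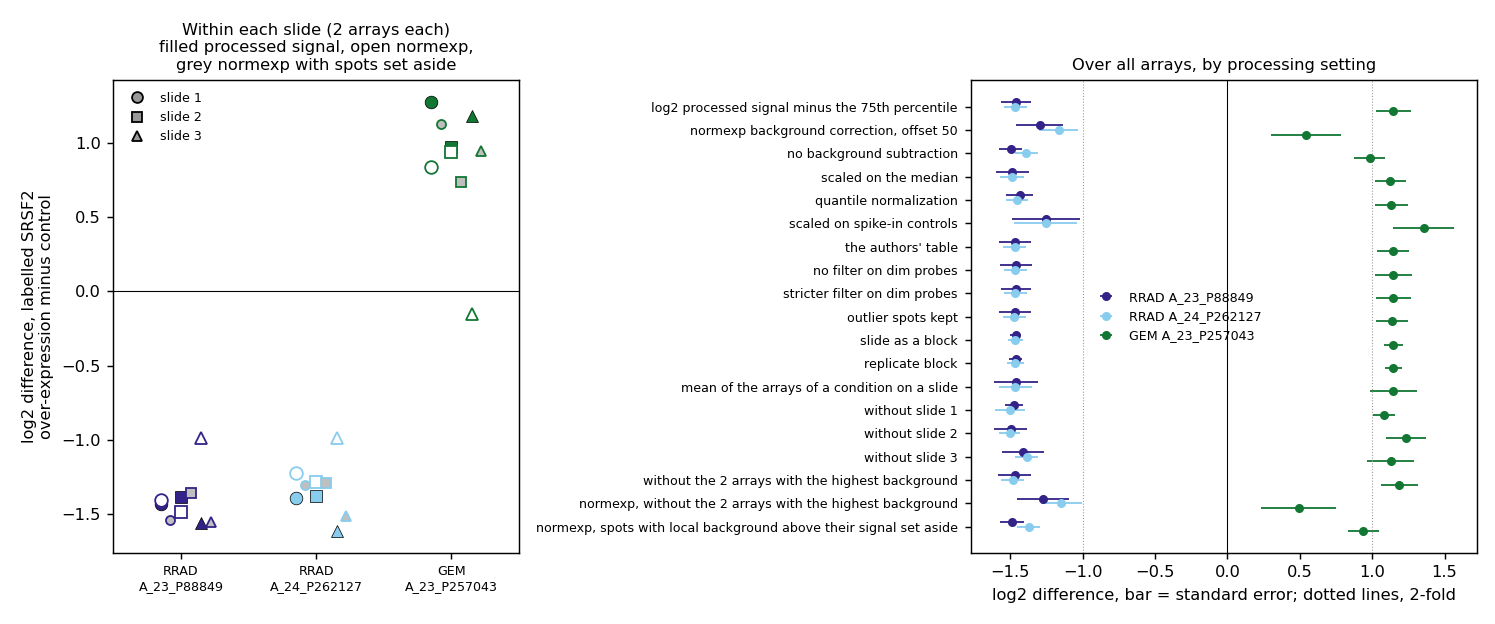
Log2 difference, arrays labelled SRSF2 over-expression minus control, of the 3 measured RGK probes within each slide (left, mean of 2 arrays per condition) and over all arrays under each processing setting (right, horizontal bars are standard errors, dotted lines mark 2-fold). In the right panel RRAD lies beyond the lower 2-fold line under every setting, and GEM lies between 0.49 and 1.35, under the 2-fold line with any of the normexp settings and without background subtraction.

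For each measured probe the 5 genes with the most similar signal were sought by Pearson's r over the 12 arrays, among 14214 probes of 10451 genes. For RRAD A_23_P88849 they were NPRL3, a regulator of the mTORC1 pathway, PPP2R3B, a regulatory subunit of protein phosphatase 2A, the glucose transporter SLC2A8, SLX9 and the platelet-type phosphofructokinase PFKP. Their r ran from 0.998 to 0.999 over the 12 arrays and from 0.93 to 1.00 within a condition. Their own log2 differences lay between -1.26 and -0.96. For RRAD A_24_P262127 they were the kynurenine aminotransferase KYAT1, the membrane-shaping protein BIN1, the kinase MKNK2, MICALL2 and PTAFR, the receptor for platelet-activating factor. Their r was 0.997 to 0.999 over the 12 arrays and 0.86 to 0.97 within a condition, with log2 differences between -1.55 and -0.92. The lists of the RRAD probes shared 0 genes. For GEM the most similar were the circadian repressor CIART, the replication factor GINS3, the Wnt receptor FZD5, the mRNA 3′ end processing factor CPSF7 and STIL, which is needed to build centrioles. Their r was 0.993 to 0.994 over the 12 arrays and 0.85 to 0.97 within a condition, with log2 differences between 0.75 and 1.11. The difference between the conditions and the shared slides enter every r over the 12 arrays, and the ranking describes these arrays. The r within a condition comes from the same arrays that chose the genes, so it is no separate support.

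The calcium channel genes, the known targets of RGK proteins, were read through a list of 15 genes with 19 probes. Of these, 9 probes of 7 genes passed the filter, and no probe of CACNA1D, CACNA1F, CACNB2, CACNB4 or any of the 4 CACNA2D genes did. At an adjusted p of at most 0.05, 3 probes were higher and 2 lower on the arrays labelled SRSF2 over-expression, and 4 did not pass. The 3 higher probes include that of CACNA1S, whose difference has no usable test (below). Over all tested probes 29.7% were higher and 28.0% lower at that threshold, and the median log2 difference was -0.08 for the list and 0.01 for all. CACNB1, a beta subunit of the kind RGK proteins bind, rose on both its measured probes, by 0.69 (SE 0.06, limma adjusted p = 3.13e-07) for CACNB1 A_23_P405754 and by 0.58 (SE 0.05, limma adjusted p = 3.72e-07) for CACNB1 A_24_P190190 on the log2 scale. Its array values for CACNB1 A_23_P405754 ran from -0.97 to -0.65 on control arrays and from -0.19 to -0.11 on the others. The remaining probe of the gene, CACNB1 A_24_P91165, was well above background on 0 arrays of either condition and did not pass the filter. CACNB3, the other measured beta subunit gene, did not pass on its probes, at -0.08 and -0.10. The pore subunit gene CACNA1E had the brightest of these probes and fell by 0.64 on the log2 scale (SE 0.22, limma adjusted p = 0.0268), with values of 4.52 to 5.52 on control arrays overlapping 3.87 to 4.95 on the others. Its adjusted p rose as high as 0.392 over the alternatives, and missed the threshold without slide 1 (log2 difference -0.40, 0.191) and without slide 3 (-0.48, 0.266). With the arrays of a condition averaged per slide it was 0.0963, and without slide 2 the log2 difference was -1.05 (adjusted p = 0.00123). The pore subunit gene CACNA1S was the only probe of the list counted past 2-fold. In the main processing it was 2.14-fold higher with dim control arrays raised to the lowest signal well above background. This size did not hold in other settings. The CACNA1S probe was near background, well above it on 2 of 6 control arrays and 6 of 6 of the others. It passed the filter only through the arrays where it was high, which leaves its difference without a usable test. Its fitted log2 difference was 1.50, and it was 0.51 with normexp and the spots set aside and -0.0045 with normexp alone.

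The list of RGK binding partners held 20 genes and 42 probes, of which 38 probes of 17 genes passed the filter. In it 14 probes were higher, 3 were lower and 21 did not pass the adjusted p threshold, and 0 were past 2-fold in either direction. Over all tested probes 29.7% were higher and 28.0% lower at that threshold, and 7.0% were past 2-fold in either direction. The median log2 difference of the list was 0.12. Of the 14 higher probes, 12 belonged to genes of the 14-3-3 family, adaptor proteins that bind phosphorylated targets, which had 21 of the 38 probes. This family was picked out after its values were seen, and 29.7% of all tested probes were higher at this threshold. The largest were YWHAE A_24_P33444, by 0.67 on the log2 scale (SE 0.19, limma adjusted p = 0.00946, and 0.0606 without slide 3 and 0.0617 with arrays averaged per slide), and YWHAH, by 0.60 (SE 0.08, limma adjusted p = 5.13e-05). EZR, encoding ezrin, which links membranes to actin and binds GEM, fell on both its probes, by 0.82 on the log2 scale for EZR A_24_P290481 (SE 0.08, limma adjusted p = 1.42e-06) and by 0.37 for EZR A_23_P19590. CAMK2D, a subunit of calmodulin-dependent kinase II, rose by 0.93 on probe CAMK2D A_32_P47988 (SE 0.09, limma adjusted p = 1.29e-06), but its other probes, at 0.12 and -0.07, did not pass the threshold. Of the kinases that RRAD and GEM bind, ROCK2 fell by 0.42 on 1 probe and stood at -0.07 on the other, and ROCK1 stood at -0.03, neither of the last past the threshold. For calmodulin, CALM2 rose by 0.26 on the log2 scale, and no probe of CALM3 passed.

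The other Ras family GTPases were read through a list of 32 genes, of which 31 had 46 named probes and 35 probes of 24 genes passed the filter. Of these, 13 were higher, 7 lower and 15 did not pass the adjusted p threshold, so that 57.1% passed against 57.7% of all tested probes. The median log2 difference was 0.17. RAP2C, a Rap GTPase, rose by 1.22 on the log2 scale for RAP2C A_23_P147826 (SE 0.11, limma adjusted p = 8.89e-07), the only probe of the list past 2-fold, while its other probe stood at -0.03. RAP1A, which acts in integrin adhesion, rose by 0.87 (SE 0.16, limma adjusted p = 0.000545). RIT1, a close relative of Ras, rose by 0.77 for RIT1 A_23_P115052 (SE 0.15, limma adjusted p = 0.000814), and its other probe stood at 0.08, not past the threshold. RALA, a GTPase of vesicle traffic, fell by 0.77 for RALA A_24_P192262 (SE 0.05, limma adjusted p = 1.22e-07) but rose by 0.26 on its other probe. NRAS rose by 0.61. In the 3 lists, 0 probes were past 2-fold in the lower direction, against 3.31% of all tested probes. RRAD was chosen with this contrast known and is not set against the lists. Of the 12 list probes named here by rule, those of CACNA1E, CACNA1S, CACNB1, CAMK2D, YWHAE A_24_P33444, RAP2C A_23_P147826 and RIT1 A_23_P115052, 8 in all, missed the adjusted p threshold with normexp. All 12 passed it with normexp and the spots set aside, though for CACNA1S the test is not usable.

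**Figure D4:**
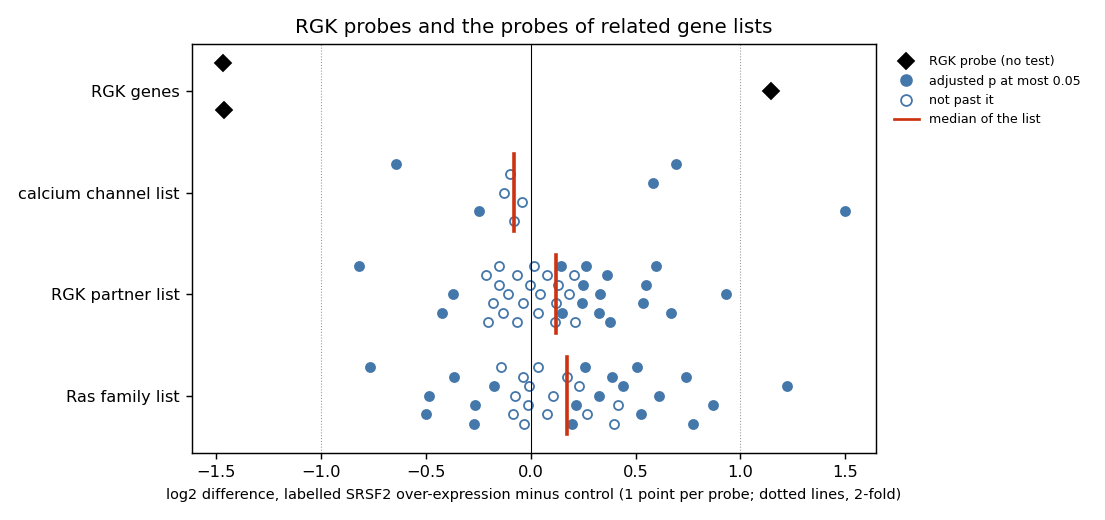
Log2 difference, arrays labelled SRSF2 over-expression minus control, of the 3 measured RGK probes (diamonds, not tested) and of each probe of the 3 related lists that passed the filter (circles, filled where limma gave an adjusted p up to 0.05). Red lines are list medians and dotted lines mark 2-fold. Both RRAD probes lie at -1.46 and were chosen with this contrast known, so they are not set against the lists. Among the list probes the lowest was EZR at -0.82.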

How the data were processed

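Total RNA was labelled with Cy3 and hybridised to 44k Agilent arrays, scanned and read with Feature Extraction 10.7.3.1, per the labels and file headers. The deposited intensity values are the software's background-subtracted processed signals, with median spot and local background intensities and quality flags. The authors also deposited a log2 table, which by comparison held log2 signal minus the array's 75th percentile, centred on each probe's median, and it served as an alternative. All levels are relative to their array.

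From the files, outlier spots were set to missing, and log2 processed signals, less the 75th percentile over gene probes, were tested with limma 3.58.1 (R 4.3.3; lmFit, eBayes, Benjamini-Hochberg over 24331 probes). A probe was kept where at most 25% of arrays lacked a value and at least 5 of the 6 arrays of either condition were marked well above background. Differences are arrays labelled SRSF2 over-expression minus control, and the threshold was an adjusted p of 0.05 and 2-fold. Probes were named through RefSeq accessions (25868 probes had one, 23958 were named). The RGK genes and the gene lists were chosen with earlier results of these data known. The text names every RGK probe, the SRSF2 probe, up to 4 probes per list (those past 2-fold, then the largest differences among those past the adjusted p), and the 5 genes most like each measured RGK probe. A further gene list and some genes are not reported here. Other list probes named beside them were chosen after their values were seen. No sequences of the probes were used. Normexp (offset 50) was run on median spot intensities. The numbers of arrays and of labelling reactions limit the precision.

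Control and SRSF2 over-expression arrays share replicate numbers in the labels. Deviations from the condition means correlated at 0.28 to 0.64 between same-numbered arrays (6 pairs). They correlated at 0.33 to 0.65 between other arrays of the same slide and at -0.48 to -0.05 between slides. Same-numbered arrays were thus about as alike as other arrays of their slide. The arrays of a slide also share a scan, and which share a labelling reaction is not given. The source of the likeness within a slide was not tested. The alternatives were other background corrections, scalings and filters, blocks, and leaving out each slide or the 2 arrays with the brightest negative controls. The script was tested on simulated data with independent noise on each array, which does not cover arrays that share a slide or labelled RNA.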

Additional observations from a re-analysis of the deposited data

Results flagged for a closer look

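In 2 of 32 groups of 6 arrays examined, 1 control array stood apart from the other 5, where chance alone gives about 1 in 20. The probe YWHAE A_24_P33444 was at -3.11 on control array 3, with the nearest control array at -2.59. RAP2C A_23_P147826 was at -1.95 on the same array, with the nearest at -2.27. None of the groups belonged to RRAD or GEM.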

How the results depend on the processing

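RRAD differed by more than 2-fold under all alternatives, with log2 differences of -1.50 to -1.25 for A_23_P88849 and -1.50 to -1.15 for A_24_P262127. With spike-in scaling they were -1.25 and -1.26, with normexp A_24_P262127 was at -1.16, and with normexp without the 2 arrays of highest background (control array 3 and array 4 labelled SRSF2 over-expression, chosen after seeing the data) they were -1.27 and -1.15. In the last setting GEM was at 0.49, after 0.54 with normexp on all arrays. Blocking on the replicate number gave -1.46 (SE 0.04), -1.46 (SE 0.06) and 1.15 (SE 0.06) for the RRAD probes and GEM and moved none of them across 2-fold. The SRSF2 probe stayed lower under all alternatives (adjusted p at most 0.0166). With the arrays of a condition averaged per slide, limma adjusted p was 0.000162 for SRSF2, 0.00154 for CACNB1 A_23_P405754 and 0.00222 for EZR A_24_P290481. CACNA1E and YWHAE A_24_P33444 then missed the threshold, at 0.0963 and 0.0617.

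The count past 2-fold in the calcium channel list was 1 higher and 0 lower, and became 0 higher with each normexp setting, without background subtraction and with the stricter filter, and 1 lower without slide 2. In the partner list it was 0 and 0, and became 1 higher with spike-in scaling and without slide 2. In the Ras family list 1 higher became 2 with spike-in scaling and without slide 2, and 0 with normexp on all arrays, with the 2 arrays left out or the spots set aside, and without background subtraction, while 0 lower became 1 without the filter. With no minimum fold the lists held 3, 14 and 13 higher and 2, 3 and 7 lower probes. The 7 include RERG A_23_P204296 and the RASL11A probe, which have no usable test. Of 227 alternative values of the 12 named list probes, 200 stayed on their side of the adjusted p threshold, 24 lost it and 3 turned sign, CACNA1S to -0.0045 and -0.16 with normexp and RIT1 to -0.16 with normexp without the 2 arrays. These counts include CACNA1S, which has no usable test.

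Over all probes, 1702 were past 2-fold, against 328 with normexp, 273 with normexp without the 2 arrays, 700 with the spots set aside and 798 without background subtraction. Spike-in scaling moved the median of all probes to 0.22 and the calls from 896 higher and 806 lower to 1601 and 430. Signal over background limits what dim probes such as GEM can show.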
